A study of Mus musculus with 18 samples.

Results

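Hes1, Hey1, Hey2, Heyl, Nrarp and Dtx1 are genes commonly read as signs of Notch signalling. They were followed in mouse skin in which Notch was switched on in the epidermis, through every probe set that the platform annotation gives to 1 of these 6 symbols. These 6 of 18193 named genes had 10 of the 45037 probe sets in the table: 3 for Heyl, 2 each for Nrarp and Dtx1, and 1 each for Hes1, Hey1 and Hey2. The 18 Affymetrix arrays formed 6 groups of 3. They held RNA of epidermis, of dermis or of whole skin, either from K14NICDER transgenic mice or from wild-type mice. All animals, wild type included, were females of the C57Bl6xCBA F1 background that received 4OHT, the active form of tamoxifen, for 14 days from the age of 7 weeks. The construct is named for the keratin 14 promoter, which is active in basal keratinocytes, and for a Notch intracellular domain fused to an estrogen receptor part that 4OHT activates. Whether tissues share animals, and how many animals and transgenic lines were used, is not stated in the labels, so p-values reflect only how far these samples spread.

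When a Notch receptor is cut, its intracellular domain enters the nucleus, joins the DNA-binding protein Rbpj and the Mastermind co-activators, and turns on target genes. The best known targets are the Hes and Hey genes, which encode basic helix-loop-helix repressors. Nrarp encodes a small ankyrin-repeat protein that binds the same nuclear complex and limits it, and Dtx1 encodes a Deltex ubiquitin ligase that modulates Notch. In skin, Hes1 is known from suprabasal keratinocytes, Hey1 and Hey2 from blood vessels, and Heyl from the mural cells (pericytes and smooth muscle) around them.

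Of the 6 genes, Heyl was the one with a call between the genotypes. Probe sets 1419302_at and 1438886_at rose in whole skin, by 5.29-fold and 6.39-fold. On both, the transgenic arrays lay above all wild-type arrays in epidermis, dermis and whole skin, as on 0.344% of all probe sets. The remaining Heyl probe set, 1419303_at, was not called in any tissue. Its genotypes overlapped in dermis and in epidermis, where its transgenic mean was the lower one. No probe set of Hes1, Hey1, Hey2, Nrarp or Dtx1 passed the test in any tissue. Between the layers of wild-type skin, Hey1 and Hey2 were higher in dermis than in epidermis, and Nrarp was lower in dermis.

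The promoter windows of 3 of the 6 genes, Nrarp, Dtx1 and Hey2, were matched in a RefSeq table of the mouse build GRCm38.p6; those of Heyl, Hey1 and Hes1 were not used here. Each window holds 250 bases before the gene's start and 50 after it. The window was searched on both strands for GTGGGAA, the usual core of sites bound by Rbpj, and for the shorter TGGGAA, which every GTGGGAA contains. The Hey2 window held 2 matches to GTGGGAA, the first beginning 207 bases before the start on the minus strand of the window and the second 4 bases before the start on its plus strand. At least 1 match was found in 6.38% of the 32851 windows in the table, and 2 or more in 0.256%. The Nrarp and Dtx1 windows held 0 matches to either motif, and TGGGAA was present in 25.6% of all windows. For the N-box CACNAG, a motif of Hes repressors, there were 2 matches in the Nrarp window, 1 in that of Dtx1 and 0 in that of Hey2, and 42.5% of all windows held one. A match is a description of the letters and not a measured site. The Hey2 stretch is shown because it is the one of the 3 with a match to GTGGGAA, and its TGGGAA matches are the same sites. It lies at chr10:30842781-30843033 on the minus strand and is written 5′ to 3′ in the direction of the gene, with the GTGGGAA matches, or their reverse complement, in capitals.
Hey2: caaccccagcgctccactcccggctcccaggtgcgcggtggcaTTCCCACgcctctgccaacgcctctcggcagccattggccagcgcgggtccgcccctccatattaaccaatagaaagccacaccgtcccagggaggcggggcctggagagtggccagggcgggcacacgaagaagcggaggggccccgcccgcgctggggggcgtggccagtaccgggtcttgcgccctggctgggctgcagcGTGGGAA

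Values are log2 signals as deposited, so that a difference of 1 is a 2-fold change. Low values on this scale are imprecise, and 30% of all probe sets have a mean below 3.15. Replicates of whole skin lay closer together (median SD 0.285) than those of epidermis (0.561) or dermis (0.581). Each tissue was therefore tested on its own 6 arrays with limma, using Benjamini-Hochberg adjustment over all 45037 probe sets. Markers set the fractions apart in wild-type skin: 6 of 7 fibroblast genes, 9 of 12 mural cell genes and 9 of 10 endothelial genes were higher in dermis, and 6 of 7 differentiated keratinocyte genes were lower there. Of 7 genes of basal keratinocytes, the cells in which the keratin 14 promoter is active, 1 was lower in dermis. Their summed linear signal was 11668 to 14206 in wild-type dermis and 15629 to 20017 in wild-type epidermis. In bulk samples, fewer cells of a type and less RNA per cell cannot be told apart.

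Heyl, the Hey family repressor known from vessel walls, was examined first. In whole skin, 1419302_at read 7.82, 7.66 and 7.84 on the transgenic arrays, against 5.50, 5.37 and 5.23 on the wild-type arrays. In dermis it read 8.27, 7.14 and 7.17 in transgenic samples, against 4.03, 5.49 and 3.76 in wild-type samples. In epidermis it read 6.04, 5.28 and 4.44 in transgenic samples, against 0.59, 3.13 and 3.87 in wild-type samples. The genotypes did not overlap in any of the 3 tissues, which in epidermis was true of 6.37% of all probe sets in that direction, and 1 wild-type epidermis array lay far below the other two.

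**Figure D1:**
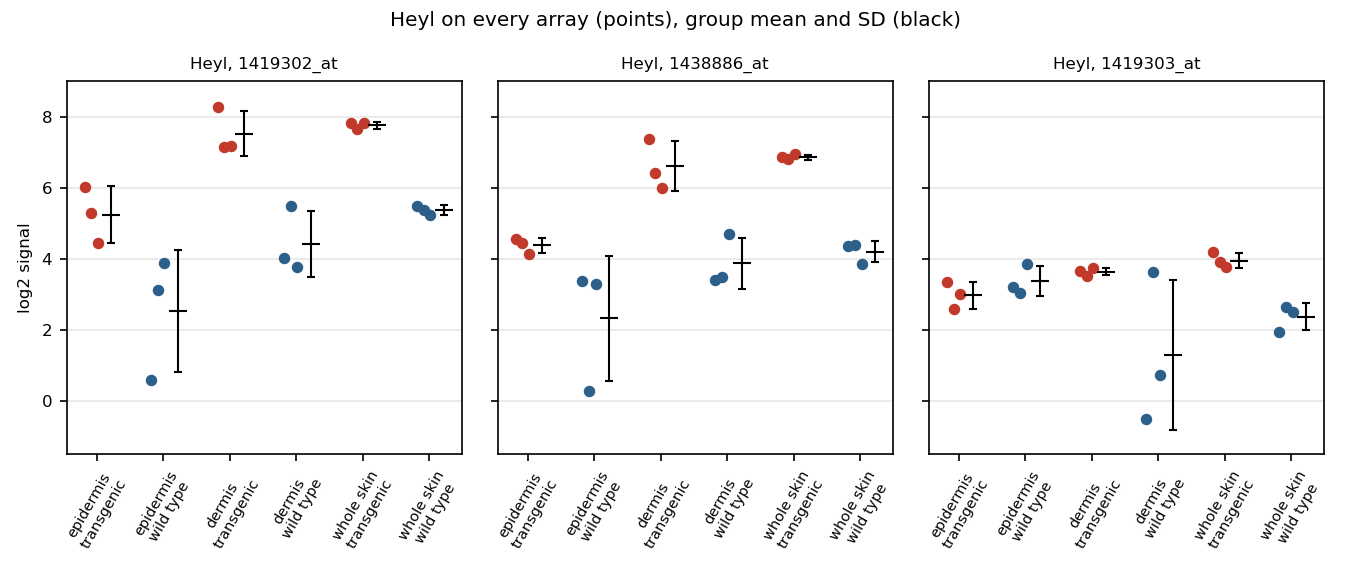
Log2 signal (vertical axis) of the 3 Heyl probe sets in the 6 groups, with 1 coloured point per array (red transgenic, blue wild type) and the group mean ± SD in black, n = 3. On 1419302_at and 1438886_at the transgenic points lie above the wild-type points of the same tissue, and on 1419303_at this holds in whole skin only.

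In whole skin, the log2 difference of 1419302_at was 2.40 ± 0.13 (SE; adjusted p = 0.000125, limma), and that of 1438886_at was 2.67 ± 0.19 (adjusted p = 0.000394, limma). These were the 2 called of the 10 probe sets, while 0.946% of all probe sets were called in that tissue and 0.562% were called higher. Both calls held when any 1 array was left out, with adjusted p of at most 0.00214 and 0.00629 in limma. In 1 fit over all 18 arrays, whose shared spread is wider than that of whole skin, neither passed (adjusted p = 0.363 and 0.201, limma).

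In dermis, 1419302_at was higher in transgenic samples by a log2 difference of 3.10 ± 0.51 (8.59-fold), which did not pass over all probe sets (adjusted p = 0.203, limma; 95% interval 1.98 to 4.22). In epidermis the difference was 2.72 ± 0.84 (6.58-fold; adjusted p = 0.163, limma; 95% interval 0.91 to 4.53). In the fit over all 18 arrays, whose shared spread gave a smaller SE of 0.63, it passed (adjusted p = 0.0204, limma). Without wild-type replicate 1, the array at 0.59, the epidermal difference was 1.75, and over all single arrays left out it ran up to 3.39. With 16 added on the linear scale, which damps dim values, 1419302_at differed by 1.22 in epidermis and 2.38 in dermis, and 1438886_at by 0.70 and 1.88 in the same tissues. In whole skin 1438886_at then differed by 1.95, and its call held (adjusted p = 0.00124, limma). The sizes thus depended on the treatment of low values, and the direction on these 2 probe sets was the same in each tissue under every setting tried.

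The second Heyl probe set, 1438886_at, gave a like picture. It read 4.56, 4.45 and 4.15 in transgenic epidermis, against 3.39, 0.27 and 3.29 in wild-type epidermis. In dermis it read 7.39, 6.43 and 6.01 in transgenic samples and 3.41, 3.49 and 4.71 in wild-type samples. In whole skin it read 6.86, 6.81 and 6.95 in transgenic samples and 4.36, 4.38 and 3.85 in wild-type samples. The log2 differences were 2.07 ± 0.88 in epidermis (adjusted p = 0.291, limma) and 2.74 ± 0.52 in dermis (adjusted p = 0.369, limma), neither past the threshold. Without wild-type replicate 2, the array at 0.27, the epidermal difference was 1.04. Transgenic arrays lay above all wild-type arrays in all 3 tissues on 2 of the 10 probe sets, both of Heyl, and on 0.344% of all probe sets.

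The third, 1419303_at, was dimmer and did not follow in epidermis. It lay between 2.58 and 3.35 in transgenic epidermis, against 3.05 to 3.85 in wild-type epidermis, a log2 difference of −0.39 ± 0.72 (adjusted p = 0.812, limma) that turned to 0.11 under quantile normalization. In whole skin it read 4.19, 3.91 and 3.76 in transgenic samples, against 1.94, 2.65 and 2.51 in wild-type samples, without overlap (1.58 ± 0.39; adjusted p = 0.109, limma). In dermis it read 3.65, 3.53 and 3.73 in transgenic samples and −0.50, 3.62 and 0.74 in wild-type samples, where it overlapped (adjusted p = 1, limma). Its mean over all arrays lay below 3.15, the only member of the 10 to do so. Over the 18 arrays its signal had a Pearson r of 0.43 with 1419302_at, while 1419302_at and 1438886_at had an r of 0.82; the arrays of a group share their tissue and genotype.

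Ordered by mean log2 signal, 1419302_at was highest in transgenic whole skin (7.77) and transgenic dermis (7.53), whose arrays overlapped. A gap of 2.16 without overlap followed, and then came wild-type whole skin (5.37), transgenic epidermis (5.25), wild-type dermis (4.43) and wild-type epidermis (2.53), each overlapping its neighbour in this order. Transgenic epidermis thus reached the range of the wild-type tissues that contain dermis.

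The genotype effect on Heyl was not shown to differ between the layers. For 1419302_at the effect in dermis minus that in epidermis was 0.38 ± 1.04 (95% interval −1.83 to 2.60; adjusted p = 0.933, limma), and it turned to −0.11 under quantile normalization. For 1438886_at it was 0.67 ± 1.05 (adjusted p = 0.877, limma), and for 1419303_at 2.75 ± 1.27 (unadjusted p = 0.0459 and adjusted p = 0.698, limma). None of the 10 probe sets passed this test in limma, where 0.0155% of all probe sets were called. Of the 10, 1419303_at was the 1 with an unadjusted p under 0.05, as had 3222 of all 45037 probe sets. The mean of the 3 genotype effects, a contrast chosen after the data were seen and fitted over all 18 arrays, was 2.74 ± 0.36 for 1419302_at (adjusted p = 0.000191, limma) and 2.49 ± 0.36 for 1438886_at (adjusted p = 0.000446, limma). These were again the 2 called of the 10, against 2.8% of all probe sets called and 1.29% called higher.

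Since Heyl is known from mural cells, the 12 listed genes of pericytes and vascular smooth muscle were set beside it. In whole skin their summed linear signal ranged from 3279 to 3892 in transgenic samples and from 3454 to 3820 in wild-type samples, and 0 of 12 passed in limma, with 1 higher and 3 lower at an unadjusted p under 0.05. In dermis it ranged from 4471 to 6425 in transgenic samples and from 4748 to 6502 in wild-type samples, again with 0 of 12 called in limma, and 6, of which 2 were higher, had an unadjusted p below 0.05. The summed mural signal, which bright genes dominate, overlapped between genotypes in both tissues, while single genes differed in both directions. The part of mural cells in the Heyl values of these tissues was not tested.

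In epidermis 2 genes of the mural list rose, and the others had differences in both directions. The summed signal, which bright genes dominate, was 1010 to 1480 in transgenic samples and 565 to 798 in wild-type samples, without overlap. Acta2, smooth muscle actin, and Pdgfrb, a receptor of mural cells and fibroblasts, were the 2 of 12 that rose, by log2 differences of 2.58 ± 0.43 and 2.48 ± 0.33 (adjusted p = 0.0123 and 0.00302, limma), and the list median was 0.01. The Acta2 probe set is of a kind that can read related transcripts. Of 7 fibroblast genes limma called 0 in epidermis, 3 had an unadjusted p below 0.05, all higher, and the list median was 0.68, with Col1a2 at 1.34 ± 0.42 (adjusted p = 0.165, limma) and Col1a1 at 0.88 ± 0.25 (adjusted p = 0.133, limma). Their summed signal was 9001 to 12536 in transgenic and 4036 to 9107 in wild-type epidermis. The part of mural cells or fibroblasts in the epidermal Heyl values was not tested. Endothelial genes gave 101 to 155 in transgenic and 115 to 228 in wild-type epidermis: limma called 0 of 10, none had an unadjusted p below 0.05, and their dimmest members were Erg at a mean of 1.32 in transgenic and Tie1 at 0.60 in wild-type epidermis.

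**Figure D2:**
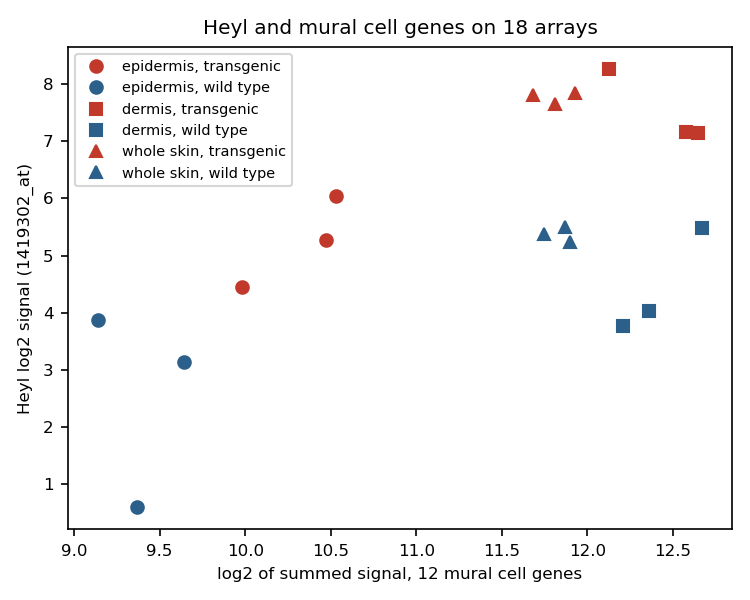
Heyl log2 signal of 1419302_at (vertical axis) against the log2 of the summed linear signal of 12 mural cell genes (horizontal axis), 1 point per array, shapes for tissues and colours for genotypes. In whole skin and dermis the red transgenic points lie above the blue wild-type points over overlapping ranges of summed mural signal, and in epidermis they lie higher on both axes.

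A further list moved with the transgene, with 3 of its 7 genes called in dermis and 1 in epidermis. It holds genes of the hair matrix and inner root sheath, the layer around the growing hair. In dermis Krt27, Krt71 and Tchh rose, by log2 differences of 8.26, 5.79 and 4.51 (adjusted p = 0.00377, 0.00432 and 0.00152, limma). Of all probe sets, 0.0222% were called there. The summed signal was 1372 to 2473 in transgenic dermis and 98 to 181 in wild-type dermis. In epidermis Krt73 rose by 4.39 ± 0.79 (adjusted p = 0.0196, limma), and the sums were 460 to 585 in transgenic and 344 to 403 in wild-type samples. Basal keratinocyte genes summed to 9141 to 9892 in transgenic dermis and 11668 to 14206 in wild-type dermis. In epidermis they summed to 10803 to 11152 in transgenic and 15629 to 20017 in wild-type samples, without overlap. There 2 of the 7 basal genes were called, both lower, against 1.07% of all probe sets. Krt15 stood at −3.66 ± 0.35 (adjusted p = 0.000288, limma) and Col17a1 at −1.19 ± 0.25 (adjusted p = 0.0425, limma). The part of hair and basal cells in the dermal and epidermal values of Heyl and of the genes below was not tested.

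Hey2, a repressor known from arterial endothelium, did not pass in any tissue. It read 5.49, 6.25 and 7.25 in transgenic dermis, against 5.21, 4.66 and 5.52 in wild-type dermis. The groups overlapped by a single pair of arrays, and the log2 difference was 1.20 ± 0.48 (95% interval 0.13 to 2.26; unadjusted p = 0.0307 and adjusted p = 1, limma). In whole skin Hey2 read 4.48, 5.23 and 4.79 in transgenic samples and 4.66, 4.22 and 4.33 in wild-type samples, a difference of 0.43 ± 0.27 (adjusted p = 0.564, limma). In epidermis it was dim and scattered, at −0.07, 3.29 and 2.14 in transgenic samples and 3.51, 2.62 and 2.19 in wild-type samples. Its genotype effect in dermis minus that in epidermis was 2.18 ± 1.09 (adjusted p = 0.702, limma).

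Hey1, a repressor of developing vessels and a frequent readout of Notch, did not pass in any tissue. It read 7.97, 7.71 and 7.66 in transgenic dermis, against 7.39, 7.70 and 8.01 in wild-type dermis, and the 95% interval of the difference ran from −0.55 to 0.71. In whole skin it read 7.35, 7.45 and 7.57 in transgenic samples and 7.49, 7.86 and 7.58 in wild-type samples, with an interval of −0.47 to 0.10. In epidermis it read 4.55, 4.66 and 3.81 in transgenic samples and 6.20, 4.32 and 5.35 in wild-type samples. The epidermal difference was −0.95 ± 0.56 (adjusted p = 0.431, limma), with an interval of −2.15 to 0.26.

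Hes1, the Hes repressor most tied to keratinocyte differentiation, had overlapping genotypes in all 3 tissues. It read 4.89, 5.19 and 5.20 in transgenic epidermis, against 5.79, 5.05 and 5.47 in wild-type epidermis, a difference of −0.34 ± 0.41 (95% interval −1.24 to 0.55; adjusted p = 0.705, limma). In dermis both genotypes averaged 4.48, with an interval of −1.10 to 1.10. In whole skin it read 3.76, 4.05 and 3.85 in transgenic samples and 3.86, 3.17 and 2.22 in wild-type samples, and the difference of 0.80 ± 0.44 (adjusted p = 0.502, limma) came with an SD of 0.15 in transgenic and 0.82 in wild-type samples.

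Nrarp, the feedback inhibitor of the Notch complex, was measured by a pair of probe sets that varied together over the 18 arrays (r = 0.91). In epidermis 1417985_at read 10.38, 10.36 and 10.35 in transgenic samples and 10.52, 9.93 and 10.23 in wild-type samples. The difference of 0.14 ± 0.25 (adjusted p = 0.804, limma) had a 95% interval of −0.39 to 0.67. On 1417986_at the epidermal difference was −0.20 ± 0.29 (95% interval −0.83 to 0.43; adjusted p = 0.758, limma). Both signs turned when single arrays were left out. In whole skin the transgenic arrays of both probe sets lay above the wild-type arrays, as did 8.44% of all probe sets there. On 1417985_at they read 10.14, 9.96 and 9.73 in transgenic samples, against 9.62, 9.66 and 9.44 in wild-type samples. The differences were small, 0.37 ± 0.12 for 1417985_at (adjusted p = 0.211, limma) and 0.31 ± 0.11 for 1417986_at (adjusted p = 0.28, limma), and did not pass.

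Dtx1, the Deltex ligase, gave different pictures on its probe sets, which had an r of 0.07 over the 18 arrays. On 1458643_at it read 6.32, 6.64 and 6.52 in transgenic dermis, against 6.06, 5.85 and 5.85 in wild-type dermis, without overlap (0.57 ± 0.32; adjusted p = 1, limma), as was the case higher in transgenic dermis for 3.51% of all probe sets. In epidermis it read 6.41, 7.38 and 6.46 in transgenic samples, against 5.22, 6.59 and 6.01 in wild-type samples, with overlap (0.80 ± 0.41; adjusted p = 0.368, limma). In whole skin the difference was 0.39 ± 0.26 (adjusted p = 0.584, limma). The mean of the 3 effects was 0.59 ± 0.20 (adjusted p = 0.147, limma). On 1425822_a_at the genotypes overlapped in all 3 tissues, and its epidermal difference of −0.16 turned to 0.33 under quantile normalization.

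**Figure D3:**
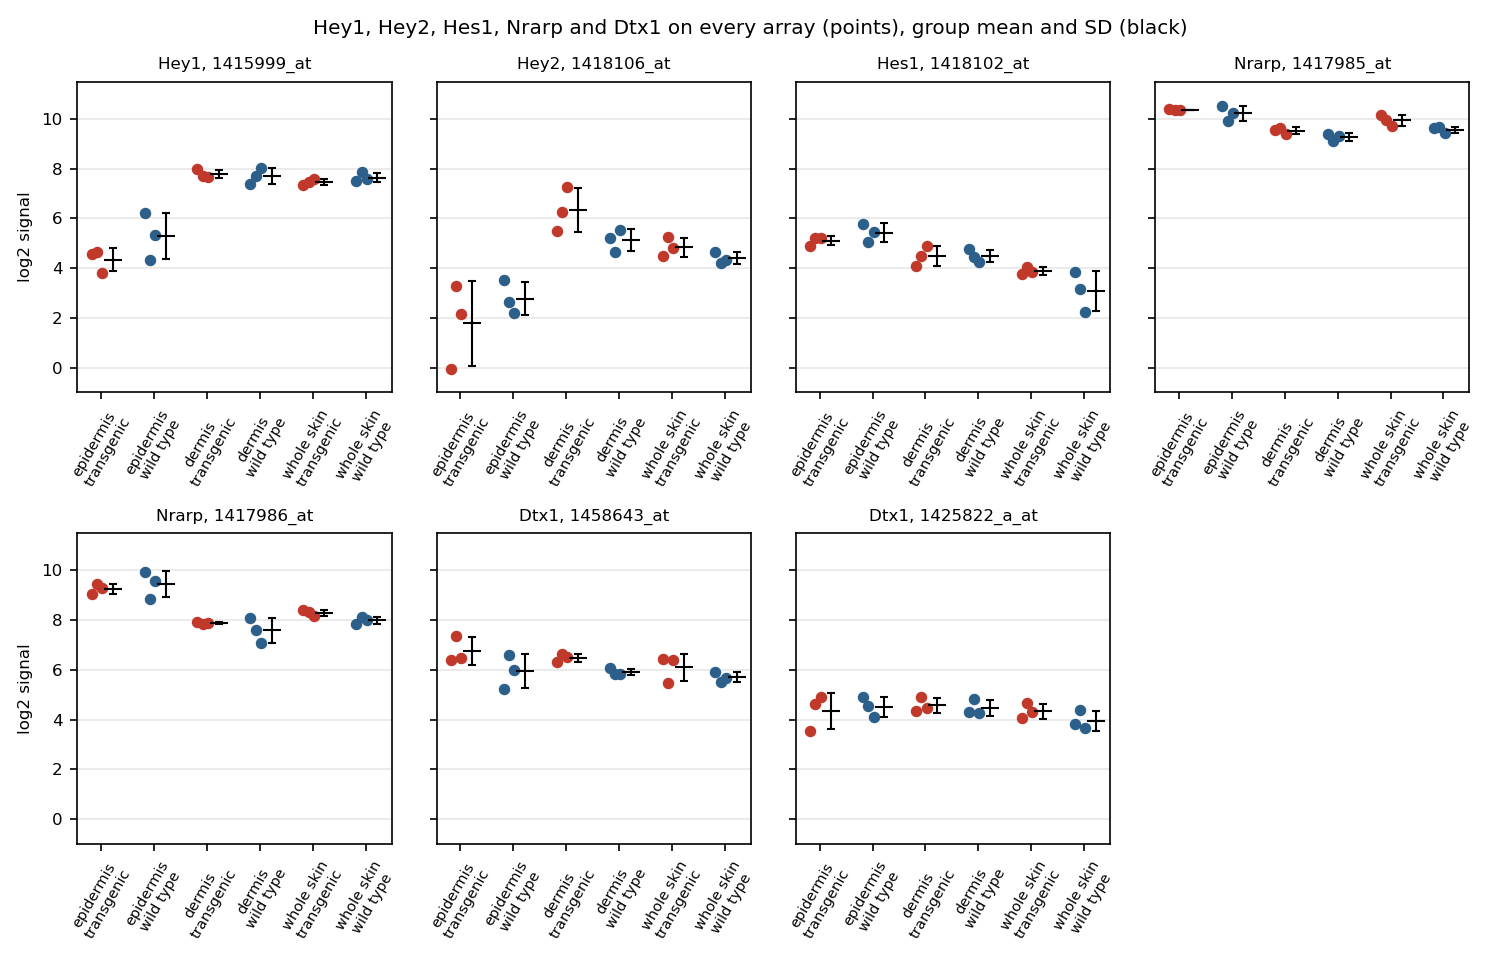
Log2 signal (vertical axis) of the 7 probe sets of Hey1, Hey2, Hes1, Nrarp and Dtx1 in the 6 groups, with 1 coloured point per array (red transgenic, blue wild type) and the group mean ± SD in black, n = 3. Hey1 and Hey2 are lowest in both epidermis groups, and Nrarp is highest there.

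Taken by tissue, 0 of the 10 probe sets were called in epidermis by limma, where 1.07% of all probe sets were called. At an unadjusted p under 0.05 there were 2 of the 10 and 6859 of all 45037. In dermis 0 were called, against 0.0222% of all. There, 4 of the 10 and 1769 of all had an unadjusted p under 0.05. In whole skin this held for 5 of the 10, all of Heyl or Nrarp, and for 5663 of all. In epidermis the median difference of the 10 was −0.18, against −0.30 for all 45037 probe sets. For dermis the medians were 0.43 and −0.06, and for whole skin 0.41 and −0.02. In epidermis quantile normalization moved the median of all probe sets to −0.03, so a difference near that size in epidermis has no firm direction.

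**Figure D4:**
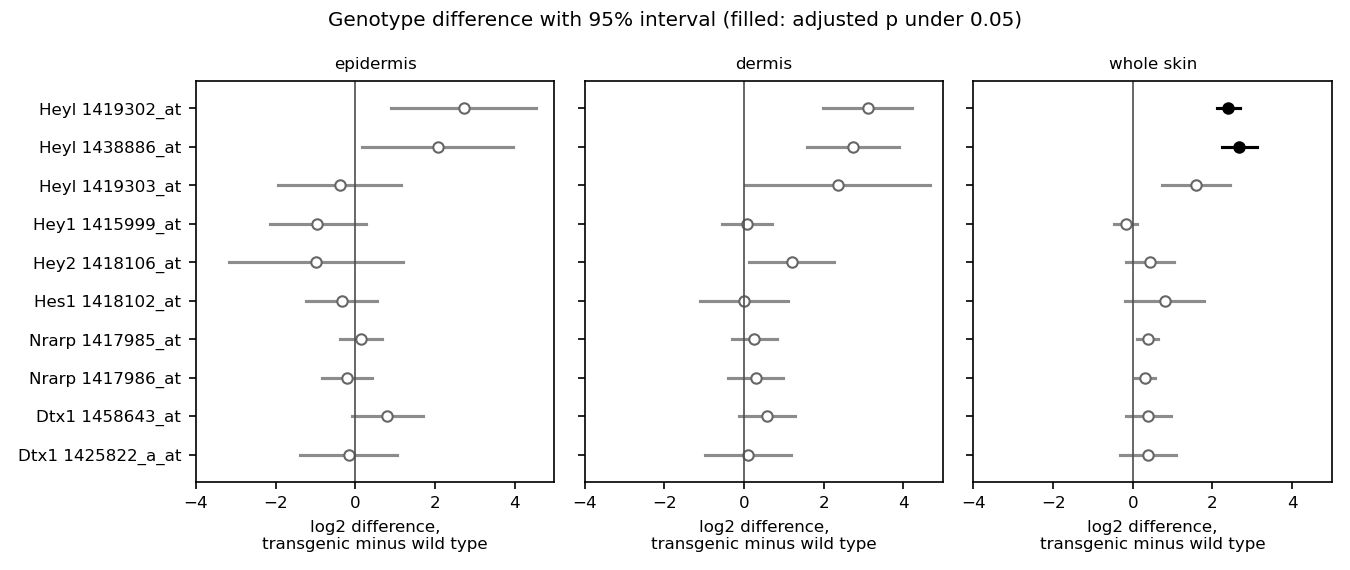
Log2 difference, transgenic minus wild type (horizontal axis), of the 10 probe sets in each tissue, with the 95% interval from limma as a line, 3 arrays per group; filled points passed an adjusted p of 0.05. The 2 filled points are Heyl in whole skin, and most intervals of the other genes cross 0.

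The layers of wild-type skin were then compared. Of the 10 probe sets, 4 passed in wild-type dermis against wild-type epidermis, as did 12.4% of all. Higher in dermis were 2, against 6.16% of all, and lower were 2, against 6.19% of all. The median difference of all probe sets, dermis minus epidermis, was −0.30, and −0.11 after quantile normalization. Hey1 averaged 7.70 ± 0.31 in dermis and 5.29 ± 0.94 in epidermis (SD, n = 3 each), without overlap as for 13.1% of all probe sets in that direction, a log2 difference of 2.41 ± 0.43 (adjusted p = 0.004, limma). Hey2 averaged 5.13 ± 0.44 in dermis and 2.77 ± 0.67 in epidermis, a difference of 2.36 ± 0.61 (adjusted p = 0.0254, limma). That call was lost when any of 4 single arrays was left out (adjusted p up to 0.145, limma). Endothelial genes, with 9 of 10 called, were higher in the same tissue, and the part of those cells was not tested.

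Nrarp went the other way. On 1417986_at it averaged 7.59 ± 0.51 in wild-type dermis and 9.45 ± 0.54 in wild-type epidermis (SD, n = 3 each), a log2 difference of −1.86 ± 0.33 (adjusted p = 0.00408, limma). On 1417985_at the difference was −0.96 ± 0.25 (adjusted p = 0.0288, limma), which did not pass without any 1 of 5 of the 6 arrays (adjusted p up to 0.106, limma). Hes1 averaged 4.48 ± 0.25 in dermis and 5.43 ± 0.37 in epidermis, without overlap (−0.95 ± 0.44; adjusted p = 0.171, limma), and 20.7% of all probe sets were lower in dermis without overlap. Heyl 1419302_at differed by 1.89 ± 0.89 (adjusted p = 0.18, limma). In the fit over all 18 arrays, whose shared spread gave a smaller SE of 0.63, it passed (adjusted p = 0.0427, limma). Heyl 1438886_at differed by 1.55 ± 0.92 (adjusted p = 0.286, limma), and 1419303_at by −2.08 ± 1.05 (adjusted p = 0.211, limma), the opposite direction. Both Dtx1 probe sets lay within 0.05 of 0 in size, with signs that turned under quantile normalization.

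**Figure D5:**
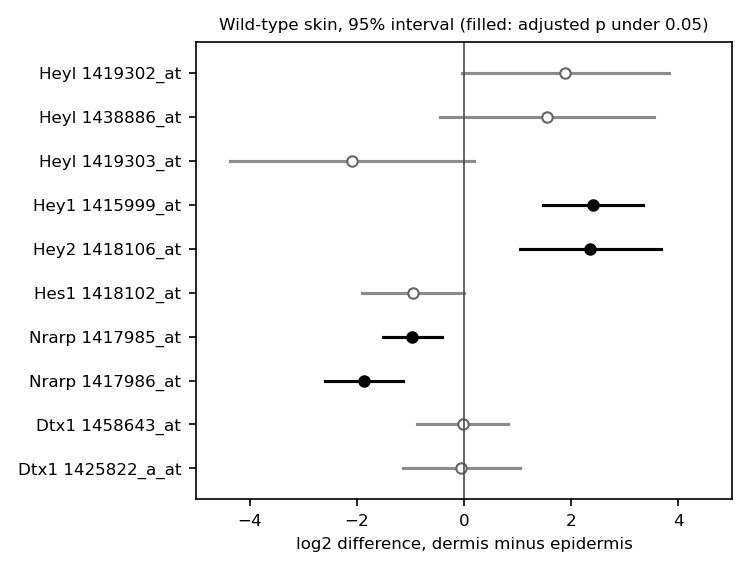
Log2 difference, wild-type dermis minus wild-type epidermis (horizontal axis), of the 10 probe sets, with the 95% interval from limma as a line, 3 arrays per group; filled points passed an adjusted p of 0.05. Hey1 and Hey2 lie right of 0 and both Nrarp probe sets lie left of it.

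The order of the groups repeated this split by layer. Hey1 had its 4 groups that contain dermis between means of 7.46 and 7.78, all overlapping their neighbours, and a gap of 2.17 without overlap above transgenic (4.34) and wild-type epidermis (5.29). Hey2 had a gap of 1.63 at the same place. For Nrarp 1417986_at both epidermis groups came first, at 9.25 in transgenic and 9.45 in wild-type samples. A gap of 0.95 without overlap separated them from transgenic whole skin. On Nrarp 1417985_at both epidermis groups also came first, at 10.36 in transgenic and 10.22 in wild-type samples. The gap to transgenic whole skin was only 0.28 there, and the arrays overlapped.

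Among 48 other measured Notch genes out of 52 listed, the changes went in both directions. In epidermis 1 rose and 3 fell by limma, with a median of −0.09, while 1.07% of all probe sets were called. Bhlhe40, a basic helix-loop-helix repressor related to the Hes and Hey proteins, averaged 9.70 ± 0.36 in transgenic and 6.62 ± 0.35 in wild-type epidermis (SD, n = 3 each), a log2 difference of 3.07 ± 0.28 (adjusted p = 0.00026, limma). The ligand Dll1 averaged 6.34 ± 0.17 in transgenic and 8.76 ± 0.25 in wild-type epidermis, and it fell, with a log2 difference of −2.42 ± 0.27 (adjusted p = 0.000829, limma). Gata3, a transcription factor of keratinocyte and hair differentiation, and Lfng, a glycosyltransferase that tunes Notch receptors, also fell, with log2 differences of −1.49 (adjusted p = 0.0194, limma) and −1.80 (adjusted p = 0.0402, limma). The Gata3 call was lost without wild-type replicate 3, transgenic replicate 1 or transgenic replicate 2, and the Lfng call with 16 added, under both other scalings, with the replicate block and without any 1 of 5 arrays.

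In whole skin 2 of the 48 rose and 1 fell, while 0.946% of all probe sets were called. Bhlhe40 rose by 1.70 ± 0.19 (adjusted p = 0.00504, limma), and Dll1 fell by 1.12 ± 0.10 on the log2 scale (adjusted p = 0.00172, limma). Myc, a growth regulator, rose by 0.62 ± 0.11 (adjusted p = 0.039, limma), a call that was lost when any 1 array was left out. In the fit over all 18 arrays none of the 3 passed (adjusted p = 0.0656, 0.0595 and 0.775 for Bhlhe40, Dll1 and Myc, limma). In dermis 0 of the 48 were called in limma, against 0.0222% of all probe sets. An unadjusted p under 0.05 was found for 2 of the 48 and for 1769 of all 45037 probe sets. The 2 were Gata3, at −1.69 ± 0.35, and Dll1, at −0.93 ± 0.29, both lower in transgenic dermis. Bhlhe40 there stood at 0.76 ± 0.39 (adjusted p = 1, limma).

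The further Hes genes were mostly at the bottom of the scale. Hes2 and Hes7 had group means between −0.20 and 2.27, Hes3 between 0.17 and 3.55 and Hes5 between 2.26 and 3.66, and none of these passed in any tissue. Hes6, which in other tissues antagonises Hes1, averaged 5.98 ± 0.37 in wild-type dermis and 4.18 ± 0.93 in wild-type epidermis (SD, n = 3 each), a log2 difference of 1.80 ± 0.52 (adjusted p = 0.0392, limma). Its probe set is of a kind that can read related transcripts. Whether this call holds under the other settings or without single arrays was not examined. Rbpj, the DNA-binding partner of the Notch domain, was also higher in wild-type dermis, by 1.67 ± 0.34 (adjusted p = 0.0081, limma), and stood at 0.30 ± 0.35 between transgenic and wild-type epidermis (adjusted p = 0.702, limma).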

How the data were processed

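RNA of 18 skin samples was measured on Affymetrix arrays. The submitters' processing notes name MAS5, which subtracts mismatch from perfect-match signal and scales each array; no version or settings of it were given. The authors deposited 1 table, taken here as log2 values: they ran from −7.52 to 14.42, and on the linear scale the mean without the highest and lowest 2% lay between 98.89 and 99.5 on every array. Between 2.81% and 9.36% of an array's values were below 0, and 0 of 153 array pairs were identical. Precision is limited by the number of arrays.

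Of 45037 probe sets, 34945 had 1 symbol, 932 several and 9160 were not named here; 34741 named probe sets had an Entrez identifier in the RefSeq table, which changed 0 symbols. Group means were fitted with limma 3.58.1 in R 4.3.3 (trended prior, no filter, no further normalization), on the arrays of the compared groups, with a threshold of 0.05 after Benjamini-Hochberg adjustment. The fit was tested on simulated data. Separate fits per tissue were chosen because earlier work on these data found unequal spread. The members, the lists (52 Notch genes, 9 marker lists), tests and naming rule were chosen with earlier results of these data known. A gene outside the 6 was read by its brightest probe set over all arrays; up to 6 called Notch genes per comparison were named, lowest adjusted p first. Other Hes genes and Rbpj were named after their values were seen. Alternatives were 1 fit over all 18 arrays, leaving out dim probe sets (mean at or under the 30th percentile, 3.15), adding 16 on the linear scale, quantile normalization, a shift to a common 75th percentile, 1 probe set per gene, the replicate number as a block, and leaving out each array.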

Additional observations from a re-analysis of the deposited data

How the results depend on the processing

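The calls on the 10 probe sets depended most on which arrays shared a spread. In 1 fit over all 18 arrays, 1 was called in epidermis and 0 in whole skin; with 1 probe set per gene, by construction, 1 was called in whole skin and 1 for the mean of 3 tissues. Without single arrays the members called were 2 to 4 between wild-type layers, 2 to 3 for the mean of tissues, 2 in whole skin and 0 in epidermis, dermis and their difference. Over all probe sets, the fit over 18 arrays called 1595 for epidermis, 54 for dermis, 32 for whole skin and 42 for the difference of dermis and epidermis, where the fits of the compared arrays called 482, 10, 426 and 7. With 16 added, 6 were called in dermis and 276 in whole skin. For the difference 0 were called without dim probe sets, 0 after quantile normalization, 0 after the 75th percentile shift and 4 with 1 probe set per gene, which called 2633 between wild-type layers (5565 with all) and 784 for the mean of tissues (1263 with all). Single arrays left out gave 97 to 2071 in epidermis, 2 to 38 in dermis, 123 to 433 in whole skin, 0 to 49 for the difference, 2278 to 8101 between layers and 796 to 1984 for the mean. Calls higher in transgenic epidermis were 60.8% as deposited, 68.6% after quantile normalization and 71.4% after the shift, and for the mean of tissues 46.1%, 57.6% and 58.9%. The cause of these changes was not tested.

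The correlations of same-numbered arrays between genotypes ran from −0.33 to 0.03 in epidermis, from −0.3 to −0.05 in dermis and from −0.14 to 0.07 in whole skin. Between dermis and epidermis they were 0.4, 0.16 and 0.0 in transgenic and 0.05, −0.04 and 0.01 in wild-type samples, so the numbers were not taken as pairs. The replicate block called 288 probe sets in epidermis and 2 for the difference; with it Heyl 1419302_at in whole skin kept an adjusted p of 0.000771 in limma, and it changed no call on the members. Signs turned only where differences were not called. After quantile normalization they were 0.11 for Heyl 1419303_at and 0.33 for Dtx1 1425822_a_at in epidermis, 0.10 for Hes1 in dermis, −0.11 for Heyl 1419302_at and −0.13 for Dtx1 1425822_a_at in the difference of layers, and 0.18 and 0.26 for Dtx1 1458643_at and 1425822_a_at between wild-type layers. After the shift they were 0.06 for Hes1 in dermis and 0.03 and 0.00 for the same Dtx1 probe sets; with 16 added, Hes1 in dermis was at 0.00. Leaving out single arrays gave ranges across 0: in epidermis −0.01 to 0.29 and −0.50 to 0.03 for Nrarp 1417985_at and 1417986_at and −0.44 to 0.25 for Dtx1 1425822_a_at; in dermis −0.07 to 0.23 for Hey1, −0.20 to 0.20 for Hes1 and −0.06 to 0.29 for Dtx1 1425822_a_at; for the difference −0.29 to 1.35 for Heyl 1419302_at, −0.03 to 0.27 for Nrarp 1417985_at, −0.56 to 0.13 and −0.15 to 0.55 for Dtx1; between wild-type layers −0.38 to 0.30 and −0.26 to 0.15 for Dtx1; and −0.04 to 0.52 for Hey2 in the mean of tissues.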

Other observations

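Over the 18 arrays, the 3 gene symbols with the highest Pearson r to Heyl 1419302_at were Cyp7b1 (0.92), Tedc1 (0.91) and Fcgr4 (0.91), out of 13738 ranked. For Hey1 they were Gkap1, Ift81 and Prdm8, each at 0.97. For Hey2 they were D630004K10Rik, Fabp4 and Lepr, each at 0.95. For Hes1 they were Znhit2 (0.96), Srcin1 (0.94) and Minar1 (0.93), and for Nrarp 1417985_at they were Macc1, Psors1c2 and Dusp5, each at 0.94. Dtx1 1458643_at had lower values, led by Abt1 at 0.81, Psmc6 at 0.79 and Ptcd1 at 0.79. These are descriptions over arrays that share tissue and genotype.

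In whole skin, limma called 0 of 7 fibroblast genes (1 at an unadjusted p under 0.05), 0 of 10 endothelial genes (0), 0 of 7 dermal papilla genes (0), 0 of 6 skeletal muscle genes (0) and 0 of 4 T cell genes (3). Of 7 differentiated keratinocyte genes, Flg and Ivl, both of the cornifying layers, rose there by log2 differences of 2.48 and 0.91, of 7 basal genes Col17a1, a hemidesmosome collagen, fell by 0.70, and of 7 hair genes Krt73 rose by 4.26. Skeletal muscle genes ranged widely within groups, from 101 to 7585 in transgenic dermis and from 87 to 2857 in wild-type dermis.

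Across the mean of the 3 tissues, the contrast chosen after the data were seen, 3 of the 48 other Notch genes rose and 4 fell in limma. Of all probe sets, 2.8% were called. Bhlhe40 rose by 1.84 and Dll1 fell by 1.49 on the log2 scale. Gata3, Lfng and the ligand Jag2 fell by 1.37, 1.13 and 0.78, and Ccnd1, which drives entry into the cell cycle, rose by 0.68. In wild-type dermis against wild-type epidermis, 5 of the 48 were higher and 3 lower, while 12.4% of all probe sets were called. Called among the 48 were Mfng at 1.89, Snw1 at 0.94, Gata3 at −1.98, Cdkn1a at −1.13 and Krt10 at −1.28, with others. Of these, Mfng, Cdkn1a, Snw1 and Krt10 did not pass without some single arrays, and Krt10 also not with 16 added or under either other scaling.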
